A study of Mus musculus with 32 samples.

Results

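Vacuolar ATPase (V-ATPase) genes were examined in spinal cord RNA of SOD1 G93A mice, a model of amyotrophic lateral sclerosis. The 9 genes described, of 42524 genes in the count table, were Atp6v0d1, Atp6v0d2, Atp6v0c, Atp6v0e, Atp6v0a1, Tcirg1, Atp6v1a, Atp6v1b2 and Atp6v1h. They were listed by name after Atp6v0d2 had been seen among the largest increases of G93A over wild-type (WT) mice at 155 days. The genotype difference at that time is therefore given for these 9 genes as a description, with no test. The 18 other genes of the V-ATPase nomenclature were not listed, and those that passed the filter on low counts, 13 within an age and 14 between ages, were tested.

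Spinal cord from 32 mice was sequenced, with 4 mice in each of 8 groups. The groups were WT or G93A, untreated or given OKN-007, at 90 or 155 days by the labels, and the study's methods give the earlier age as 95 days. The G93A mice carried the human SOD1 transgene with the G93A mutation, in the line Tg(SOD1-G93A)1Gur on C57BL/6J. The transgene is a human SOD1 gene under its own promoter, which is active across many cell types. WT mice were littermates without the transgene. OKN-007 is an antioxidant and anti-inflammatory compound given in drinking water, and no dose was assigned to the sequenced mice here. Mice of the study were predominantly female, and each library was made from 25 mg of cord. The count of reads on genes was 19701722 to 30138257 per mouse, and 3 counts in the smallest library corresponded to 0.152 CPM, the unit of all levels given here: read counts relative to the library total, scaled by edgeR's TMM factors. This limit covers counting error only. Nothing in the labels names a sequencing run or a batch, so age and run cannot be told apart.

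The V-ATPase is a proton pump of lysosomes, endosomes and synaptic vesicles. Its membrane sector, V0, carries protons through the c ring and an a subunit. Its outer sector, V1, splits ATP at the A and B subunits. The d subunit sits on the c ring and links it to the central stalk. Most cells use d1, encoded by Atp6v0d1, whereas d2, encoded by Atp6v0d2, is known from osteoclasts, macrophages and kidney. Neurons use the pump to fill synaptic vesicles with transmitter, and microglia use it to acidify the lysosomes that digest engulfed material.

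Atp6v0d1 (ENSMUSG00000013160) lies on the minus strand at chr8:105524465-105566047 and Atp6v0d2 (ENSMUSG00000028238) on the minus strand at chr4:19876841-19922605 of GRCm38, by the GENCODE M21 annotation. The paralogues were compared first at the level of sequence, since reads that fit both genes could move counts between them. Over 1056 aligned columns of their coding sequences, stop codon included, 65.7% of bases were identical and the longest identical run was 17 bases. The same 90-base stretch of each coding sequence, bases 121 to 210 from the A of the start codon, is printed from the GENCODE M21 transcripts with the 28 differing bases in capitals.
Atp6v0d1: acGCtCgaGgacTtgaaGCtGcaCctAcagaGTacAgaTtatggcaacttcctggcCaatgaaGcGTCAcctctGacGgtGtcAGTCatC
Atp6v0d2: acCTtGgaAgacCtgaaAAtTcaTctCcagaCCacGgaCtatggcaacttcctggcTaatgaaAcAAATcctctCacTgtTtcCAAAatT
The printed stretch was chosen around the longest identical run. Across all 967 windows of 90 bases, the paralogues differed at 19 to 45 bases. No such stretch of coding sequence was shared between them. Coding sequence without the stop codon makes up 1053 of 1793 exon bases of Atp6v0d1 and 1050 of 2716 of Atp6v0d2. Untranslated exon sequence was not compared.

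Atp6v0d2 was almost absent from WT spinal cord. Of the 16 WT mice, 8 had 0 counts and no mouse had more than 3, with 10 counts in all. In untreated G93A mice at 155 days the level was 10.7, 12.1, 17.4 and 3.25 CPM, from 285, 295, 427 and 100 counts. In OKN-007 treated G93A mice at 155 days it was 17.6, 18.001, 12.6 and 10.7 CPM. All 8 G93A mice of this age lay far above every WT mouse, and replicate 12 of the untreated group was the lowest of them. Against 3 counts in the smallest WT library of the same treatment, the mean was at least 85.0-fold higher in untreated mice and at least 128-fold higher in treated mice. The lowest G93A mouse was still at least 25.5-fold and at least 92.5-fold higher in these comparisons. Since Atp6v0d2 was chosen by this contrast, no test is given for it. In bulk tissue, more cells that make a transcript and more transcript per cell cannot be told apart.

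Atp6v0d1 had a similar level in every group. Its lowest group mean was 189.7 ± 3.25 CPM (SD, n = 4) in treated G93A mice at 155 days and its highest 215 ± 12.99 CPM (SD, n = 4) in untreated G93A mice at 90 days. Untreated WT mice at 155 days had 206, 229, 205 and 210.1 CPM and untreated G93A mice of that age 208, 188, 217.5 and 187 CPM. These groups overlapped. The fitted log2 fold change was -0.04 ± 0.07 (standard error) without and -0.05 ± 0.07 with OKN-007. Treated G93A mice had 185, 191, 192 and 190.3 CPM and treated WT mice 200.5, 207, 211 and 208 CPM, which did not overlap. CPM were scaled over all 32 mice and fold changes over the 16 mice of that age, so the sizes differ. In treated mice the means of 189.7 CPM in G93A and 206.7 CPM in WT lie further apart than the fitted change of -0.05. Overlap is judged on the CPM scale here and below, so for small changes it can depart from the fit.

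**Figure D1:**
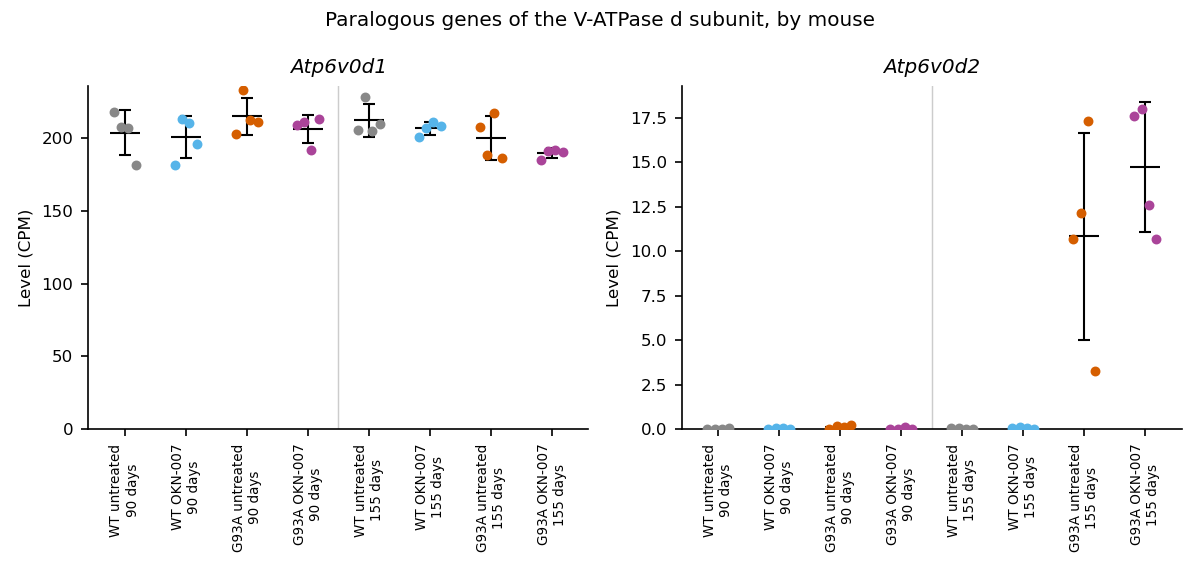
Level of Atp6v0d1 (left) and Atp6v0d2 (right) in CPM in each of the 32 mice, by group, with the mean and SD of 4 mice as black bars and a grey line between the ages. Atp6v0d1 stays between 182 and 233 CPM in all mice, whereas Atp6v0d2 is at 3.25 to 18.001 CPM in the 8 G93A mice of 155 days and at most 0.207 CPM in the other 24 mice.

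The order of Atp6v0d2 group means ran from treated G93A mice at 155 days (14.7 ± 3.65 CPM, SD, n = 4) and untreated G93A mice at 155 days (10.9 ± 5.82 CPM) to untreated G93A mice at 90 days (0.131 ± 0.0931 CPM). The other 5 groups had means of 0.0102 to 0.0467 CPM. The first and second groups overlapped, as did each neighbouring pair among the other 6 groups. The gap between 10.9 and 0.131 CPM was the only step in this order without overlap.

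Even at its highest, Atp6v0d2 was the lesser d subunit transcript. Per kilobase of exon, it was 3.27%, 4.08%, 5.002% and 1.14% of the summed d1 and d2 level in untreated G93A mice at 155 days, and 5.91%, 5.85%, 4.14% and 3.57% in treated ones. The means were 3.37% ± 1.65 and 4.87% ± 1.19 (SD, n = 4 each). Per kilobase of coding sequence the mean shares were 5.02% and 7.20%. In the other 24 mice the share per kilobase of exon was at most 0.0646%. The d2 transcript thus came on top of a d1 transcript that was present in all mice.

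The a subunit genes of the V0 sector did not move together. Tcirg1 encodes a3, the form known from osteoclasts and from lysosomes of macrophages. At 155 days it was at 13.9, 13.8, 14.5 and 15.98 CPM in untreated WT mice and 33.6, 48.6, 46.6 and 32.1 CPM in untreated G93A mice. Each G93A mouse had more than each WT mouse, and the log2 fold change was 1.51 ± 0.13 (standard error). Treated mice showed 13.2 to 15.1 CPM in WT and 34.4 to 52.2 CPM in G93A, with a log2 fold change of 1.65 ± 0.13. Atp6v0a1 encodes a1, the form most used by neurons and synaptic vesicles. It was at 350.5, 322, 352 and 308 CPM in untreated WT mice and 256, 218, 228 and 274 CPM in untreated G93A mice. All G93A mice were below all WT mice, with a log2 fold change of -0.40 ± 0.10. In treated mice the groups were at 275 to 376 CPM and 199 to 225.5 CPM, with a log2 fold change of -0.47 ± 0.10.

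The small V0 subunit gene Atp6v0e, which encodes the widespread e1 form, was higher in G93A mice. It was at 20.8, 21.4, 20.99 and 20.6 CPM in untreated WT mice and at 35.9, 35.6, 56.2 and 30.7 CPM in untreated G93A mice at 155 days. Replicate 11 stood highest at 56.2 CPM, and no G93A mouse overlapped the WT mice. The log2 fold change was 0.96 ± 0.16 without and 0.92 ± 0.16 with OKN-007, where G93A mice had 28.6 to 43.2 CPM and WT mice 17.1 to 23.9 CPM. Atp6v0c, which encodes the proton-carrying c subunit, was at 164 to 197 CPM in untreated G93A and 189.8 to 235.5 CPM in untreated WT mice, ranges that overlapped. Its log2 fold change was -0.13 ± 0.08 without and -0.05 ± 0.08 with OKN-007. The table also holds pseudogene copies of Atp6v0c, which can take some of its reads.

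The listed genes of the V1 sector were lower in G93A mice at 155 days. Atp6v1a encodes the catalytic A subunit and was at 428, 360.4, 414 and 346 CPM in untreated WT against 301, 227, 276.5 and 317.5 CPM in untreated G93A mice. Atp6v1b2 encodes the B2 subunit, the B form of brain, and was at 473, 462, 454.5 and 416 CPM against 345.5, 278, 327.5 and 364 CPM. Neither gene overlapped between the genotypes, and both had a log2 fold change of -0.41 ± 0.10. In treated mice the log2 fold change was -0.40 ± 0.10 for Atp6v1a and -0.49 ± 0.10 for Atp6v1b2. Atp6v1h encodes the H subunit, which regulates the coupling of V1 to V0. It was at 177, 170.1, 162 and 158 CPM in untreated WT and 150.4, 128, 158 and 145 CPM in untreated G93A mice, where the highest G93A mouse lay just under the lowest WT mouse. Its log2 fold change was -0.15 ± 0.08 without and -0.24 ± 0.08 with OKN-007.

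Counted by overlap, 7 of the 9 listed genes separated the genotypes completely in untreated mice at 155 days, 3 higher and 4 lower in G93A mice, and 33.3% of all 18675 genes tested did so. In treated mice 9 of 9 separated them, 3 higher and 6 lower, against 45.4% of all genes. These genes were chosen with the contrast known, so nothing is read from these counts. The median log2 fold change of the 9 genes was -0.13 in untreated and -0.05 in treated mice, where that of all genes tested was 0.00 and 0.02. All 9 genes passed edgeR's filterByExpr at 155 days, Atp6v0d2 only through its G93A mice.

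**Figure D2:**
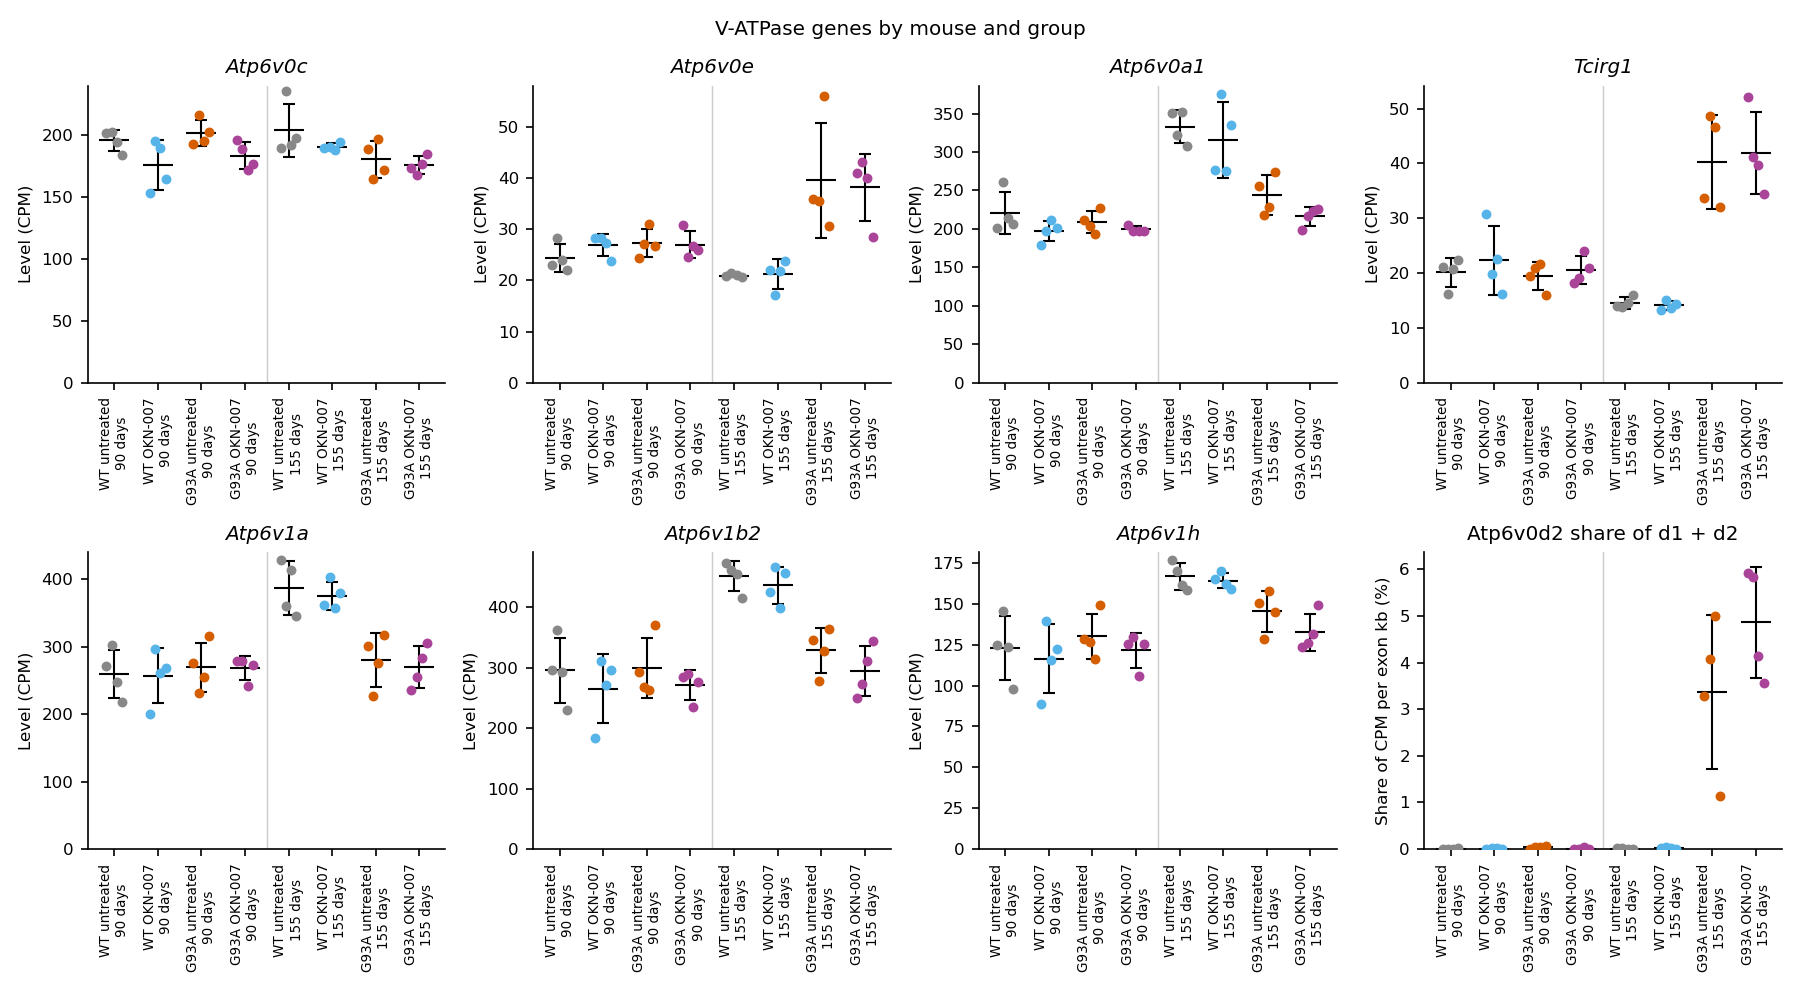
Level in CPM of the 7 remaining listed genes in each of the 32 mice, by group, and, in the last panel, the share of Atp6v0d2 in the summed Atp6v0d1 and Atp6v0d2 level per kilobase of exon. Black bars are the mean and SD of 4 mice. Tcirg1 and Atp6v0e are higher, and Atp6v0a1, Atp6v1a and Atp6v1b2 lower, in G93A than in WT mice at 155 days. At 90 days 0 of them passed the test between genotypes.

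The V-ATPase genes that were not listed were tested in the same contrast. By edgeR's quasi-likelihood test with Benjamini-Hochberg adjustment over all genes, 13 of the 18 passed the filter at 155 days, and 8 of the 13 differed between untreated G93A and WT mice at an adjusted p under 0.05. Of these, 2 were higher and 6 lower in G93A mice, where 21.3% of all genes were higher and 18.2% lower. In treated mice 8 of 13 differed, again 2 higher and 6 lower, where 23.3% of all genes were higher and 18.2% lower. The median log2 fold change of the 13 genes was -0.24 and -0.15. Untreated and treated mice are separate animals, so these contrasts share no sample.

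Higher in G93A mice were a further a subunit and the widespread G subunit. Atp6v0a2, which encodes the a2 form known from Golgi and endosomes, was at 100.1, 117, 90.9 and 105 CPM in untreated G93A and 81.6, 70.4, 80.2 and 70.2 CPM in untreated WT mice, with no overlap. Its log2 fold change was 0.50 ± 0.08 (adjusted p = 4.05e-05, edgeR) without and 0.59 ± 0.08 (adjusted p = 4.96e-06, edgeR) with OKN-007. Atp6v1g1 rose by 0.35 ± 0.09 on the log2 scale (adjusted p = 0.0052, edgeR) without and 0.33 ± 0.09 (adjusted p = 0.00688, edgeR) with OKN-007, and its untreated groups overlapped. Lower in G93A mice was Atp6v1g2, which encodes the neuronal G2 form. It was at 238, 194, 192 and 252 CPM in untreated G93A and 329, 353, 349.5 and 319 CPM in untreated WT mice. Its log2 fold change was -0.57 ± 0.09 (adjusted p = 9.5e-05, edgeR) without and -0.56 ± 0.09 (adjusted p = 9.79e-05, edgeR) with OKN-007.

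The stalk genes Atp6v1c1, Atp6v1d and Atp6v1e1, and Atp6v0e2, which encodes the e2 form enriched in brain, also fell in both contrasts. Their log2 fold changes were between -0.24 and -0.31 in untreated mice and between -0.25 and -0.35 in treated mice. Rnasek passed in untreated mice (log2 fold change -0.70 ± 0.26, adjusted p = 0.038, edgeR), on 11 to 26 counts in G93A and 29 to 35 counts in WT mice. Atp6ap1l passed in treated mice (-1.53 ± 0.34, adjusted p = 0.00132, edgeR), on 5 to 7 counts in G93A and 16 to 23 counts in WT mice. Neither passed the other contrast, and neither passed the test of genotype by treatment. Of the 5 genes that the filter removed, Atp6v0a4 and Atp6v1b1, forms known from kidney, had at most 12 and 4 counts in any mouse, Atp6v1g3 at most 2, Atp6v1c2 at most 16 and Atp6v1e2 at most 13.

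**Figure D3:**
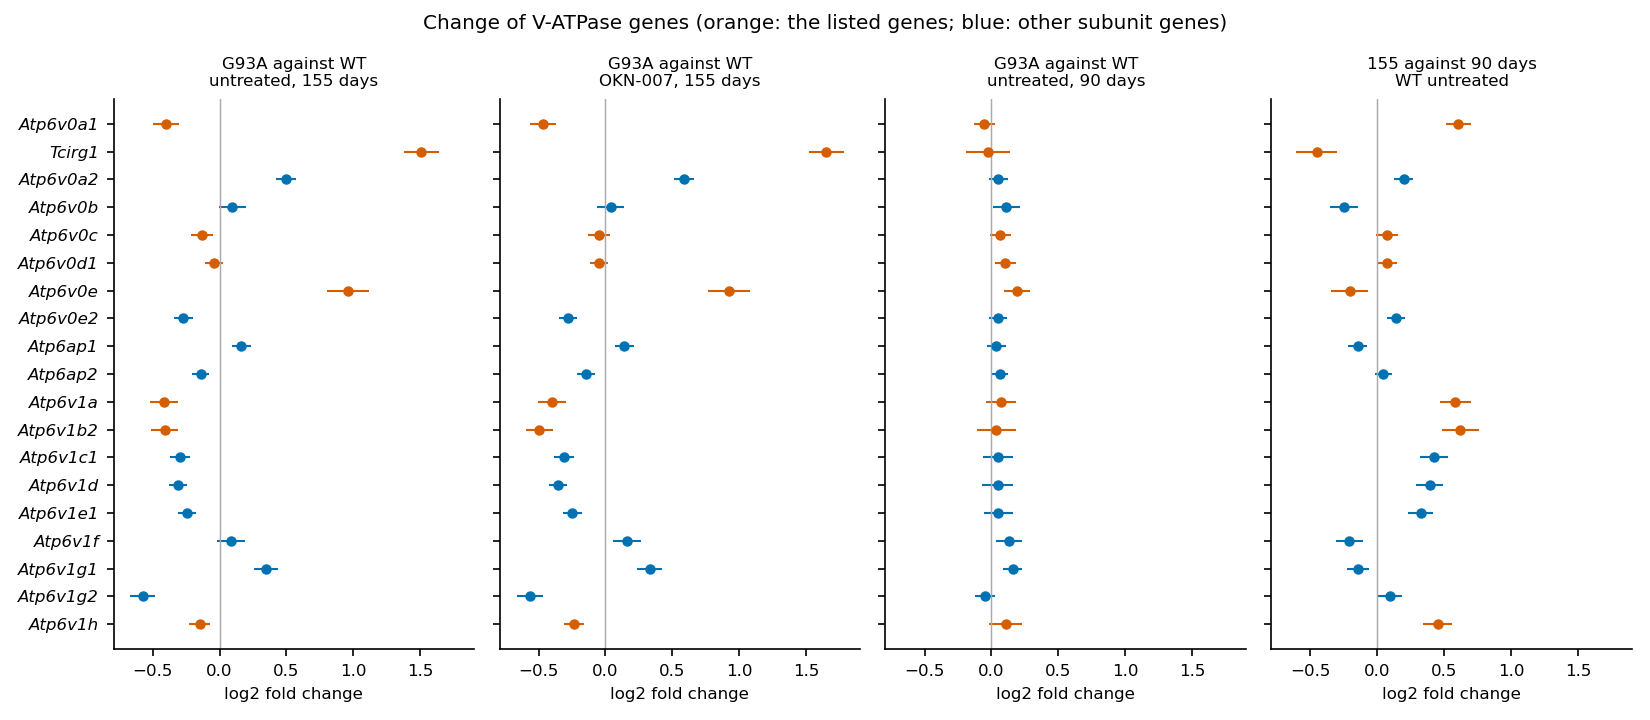
Fitted log2 fold change with its standard error for 8 listed genes (orange) and 11 other V-ATPase genes (blue), in 4 comparisons. Atp6v0d2, Rnasek, Atp6ap1l and genes with few counts are left out. Tcirg1 (1.51 and 1.65) and Atp6v0e (0.96 and 0.92) stand to the right at 155 days, Atp6v1g2 (-0.57 and -0.56) lies farthest left there, all genes lie near 0 at 90 days, and Atp6v0a1, Atp6v1a and Atp6v1b2 (0.58 to 0.62) lie to the right for age in WT mice.

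Genes of assembly factors, which build the pump or join its sectors, were tested as well. Of 7 such genes, 5 differed in untreated mice at 155 days, 1 higher and 4 lower in G93A mice, and 4 in treated mice, 1 higher and 3 lower. Of all genes, 21.3% were higher and 18.2% lower in untreated mice, and 23.3% and 18.2% in treated mice. Dmxl2 and Wdr7, which encode rabconnectins that bring V1 onto V0 at synaptic vesicles, fell by 0.71 ± 0.13 and 0.52 ± 0.11 on the log2 scale in untreated mice (adjusted p = 0.000239 and 0.00145, edgeR). In treated mice they fell by 0.57 ± 0.13 and 0.56 ± 0.12 (adjusted p = 0.00135 and 0.00071). Rogdi fell by 0.25 ± 0.07 without and 0.27 ± 0.07 with OKN-007 (adjusted p = 0.00858 and 0.00466, edgeR). Dmxl1 fell by 0.34 ± 0.11 in untreated mice (adjusted p = 0.0209, edgeR), where its groups overlapped, and was at 0.03 ± 0.11 in treated mice (adjusted p = 0.873). Ccdc115, an assembly factor of the V0 sector, was higher by 0.33 ± 0.09 in untreated mice (adjusted p = 0.00511, edgeR), where its groups overlapped. Vma21 and Tmem199, which act in V0 assembly as well, had log2 fold changes of -0.15 ± 0.09 and -0.09 ± 0.07 and did not pass.

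The MiT/TFE transcription factors are known to activate lysosomal and V-ATPase genes, and 3 of the 4 could be tested at 155 days. All 3 were higher in G93A mice, Tfe3 by 0.45 ± 0.07, Tfeb by 0.39 ± 0.10 and Mitf by 0.24 ± 0.09 on the log2 scale in untreated mice (adjusted p = 7.98e-05, 0.00532 and 0.0491, edgeR). In treated mice the differences were 0.39 ± 0.07, 0.50 ± 0.10 and 0.46 ± 0.09 (adjusted p = 0.000299, 0.000614 and 0.000634). Of all genes, 21.3% and 23.3% were higher in these contrasts. The genotypes overlapped for Tfeb and Mitf in untreated mice, and for none of these factors in treated mice. These factors bind an E-box core, CACGTG, often extended to TCACGTGA. Promoters of 6 of the 9 listed genes, 250 bases before to 50 after the start site in RefSeq on GRCm38.p6, were searched for both words, which read the same on both strands and of which the shorter lies inside the longer. TCACGTGA was present in 3 of the 6 and in 1.12% of 27025 genes, and CACGTG in the same 3 and in 8.09% of genes. Of 13 other V-ATPase genes, 1 held CACGTG and 0 held TCACGTGA. The match in each of the 3 promoters is shown in capitals with 15 bases on either side, on the strand of the gene.
Atp6v0d1, chr8:105566046-105566083, minus strand, motif from base -4: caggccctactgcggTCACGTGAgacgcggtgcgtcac
Atp6v1a, chr16:44139369-44139406, minus strand, motif from base -132: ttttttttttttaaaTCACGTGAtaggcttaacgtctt
Atp6v0e, chr17:26676383-26676420, plus strand, motif from base 3: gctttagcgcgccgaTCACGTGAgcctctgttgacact
These 3 genes did not share a direction at 155 days, with log2 fold changes of -0.04, -0.41 and 0.96 in untreated mice. Promoters of Atp6v0d2, Atp6v1b2 and Atp6v1h were not analysed here.

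At 90 days, Atp6v0d2 had at most 6 counts in any mouse. Untreated G93A mice had 0, 4, 3 and 6 counts, or 0, 0.187, 0.129 and 0.207 CPM, and untreated WT mice had 0, 0, 0 and 1 count. Treated G93A mice had 0 counts in 3 mice and 3 counts in replicate 15. Over all mice of this age, 8 G93A mice summed to 16 counts and 8 WT mice to 3. The log2 ratio of Atp6v0d2 to Atp6v0d1, with 0.1 CPM added to each, was 0.88 higher in untreated G93A than in untreated WT mice. In an exact two-sided permutation test this gave p = 0.0571, adjusted over 2 such ratio tests p = 0.114, where 4 against 4 mice cannot go below 0.0286. The 3 untreated G93A mice with counts lay above all untreated WT mice, and the difference did not pass the test.

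The other 8 listed genes were tested at 90 days, and 0 of them passed in untreated mice, with 0 at an unadjusted p under 0.05. The same held for treated mice. Of the 13 other V-ATPase genes, 0 passed in untreated mice, where 2 had an unadjusted p under 0.05, and 0 in treated mice, where 0 had. Over all genes 0 of 18899 (0.0%) passed in either contrast, with 1126 and 747 at an unadjusted p under 0.05, and DESeq2 and edgeR's likelihood ratio test called 0 V-ATPase genes as well. The widest interval among the listed genes was that of Tcirg1 in untreated mice, whose log2 fold change was -0.02 with a 95% interval from -0.34 to 0.30. For Atp6v0e it was 0.19, from -0.00 to 0.38, and for Atp6v0d1 0.10, from -0.05 to 0.25.

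OKN-007 treated and untreated mice were then compared within each genotype. In G93A mice at 155 days, 0 of the 22 V-ATPase genes tested passed, as did 0 of all 18675 genes (0.0%), and 2 V-ATPase genes and 755 genes in all had an unadjusted p under 0.05. Atp6v0d2 differed by 0.46 on the log2 scale, with a 95% interval from -0.15 to 1.06, and its groups overlapped. The log2 ratio of Atp6v0d2 to Atp6v0d1 was 0.70 higher in treated G93A mice, from -4.41 to -3.71, with p = 0.171 in the exact two-sided permutation test (adjusted over 2 tests, 0.171). The intervals of Tcirg1 (0.07, from -0.18 to 0.32), Atp6v0e (-0.04, from -0.34 to 0.26) and Atp6v1b2 (-0.15, from -0.35 to 0.04) all included 0. This contrast shares the untreated G93A mice with the genotype contrast. In WT mice at 155 days, in both genotypes at 90 days, and for the genotype by treatment interaction at 155 days, 0 V-ATPase genes passed, with 0, 2, 1 and 2 at an unadjusted p under 0.05 in WT at 155 days, G93A at 90 days, WT at 90 days and the interaction. In each of these 4 comparisons 0 of all genes (0.0%) passed, so the count of 0 is not particular to V-ATPase genes. DESeq2 and the likelihood ratio test also called 0 V-ATPase genes in each. Atp6v0d2 was among the genes tested in WT mice at 155 days and for the interaction. With at most 3 counts in a WT mouse of that age, it could show little there.

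Age was compared in WT mice, where the G93A transgene plays no part. In untreated WT mice, 5 of the 9 listed genes differed between 155 and 90 days in edgeR's quasi-likelihood test over 19829 genes. At 155 days 4 were higher and 1 lower, where 15.3% of all genes were higher and 9.61% lower. Atp6v0d2 counts among the 9 but passed the filter only through its G93A mice. At 0.0102 CPM at 90 days and 0.0202 CPM at 155 days, it was too low in these WT mice to show a change. Atp6v0a1 rose by 0.60 ± 0.09 on the log2 scale (adjusted p = 0.000122), Atp6v1a by 0.58 ± 0.12 (adjusted p = 0.000825), Atp6v1b2 by 0.62 ± 0.14 (adjusted p = 0.00189) and Atp6v1h by 0.45 ± 0.11 (adjusted p = 0.00393). Tcirg1 fell by 0.45 ± 0.15 (adjusted p = 0.0294). These 4 genes did not overlap between the ages, and neither did Tcirg1. The untreated WT mice of 155 days are also 1 arm of the contrast by which the listed genes were chosen. These tests of the listed genes are therefore not independent of that choice. Of 14 other V-ATPase genes, 4 differed and all 4 were higher, namely Atp6v1c1, Atp6v1d, Atp6v1e1 and Atp6v0a2, with log2 fold changes of 0.20 to 0.42. Of 7 assembly genes 2 passed, Dmxl2 and Wdr7, which rose by 0.83 and 0.66 (adjusted p = 0.000249 and 0.000427). Without replicate 4 of the untreated 90-day mice, 5 V-ATPase genes passed in place of 9.

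OKN-007 treated WT mice, which are other animals, had the same 5 listed genes past the threshold, 4 higher and 1 lower, where 17.8% of all genes were higher and 13.5% lower. Atp6v0d2 was again among the genes tested, at 0.0199 CPM at 90 days and 0.0467 CPM at 155 days, too low to show a change. The log2 fold changes were 0.67 ± 0.09 for Atp6v0a1, 0.54 ± 0.12 for Atp6v1a, 0.71 ± 0.14 for Atp6v1b2, 0.49 ± 0.11 for Atp6v1h and -0.67 ± 0.15 for Tcirg1 (adjusted p = 1.05e-05, 0.000906, 0.000321, 0.00141 and 0.0014, edgeR). The treated WT mice of 155 days stand in the genotype contrast of treated mice, so a like limit holds here. Of 14 other V-ATPase genes, 7 differed with age in treated WT mice, 4 higher and 3 lower. The median log2 fold change of the 14 was -0.05, against 0.07 in untreated WT mice. The summed level of 6 caudal Hox genes, which mark position along the cord, moved with age as well. It was 19.2 to 93.8 CPM at 90 days and 85.6 to 148 CPM at 155 days in untreated WT mice, where 0 of the 6 genes passed. In treated WT mice it was 22.6 to 70.8 CPM and 127 to 169 CPM, with no overlap, and 3 of the 6 were higher. With a caudal Hox score as a covariate, 9 V-ATPase genes passed for age in untreated WT mice, as without it.

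Group means of the 5 listed genes that changed with age in WT mice are set side by side for both genotypes. Atp6v0a1 had means of 209 CPM at 90 days and 244 CPM at 155 days in untreated G93A mice, and 220.5 and 333 CPM in untreated WT mice. Atp6v1h had 130 and 145.5 CPM in untreated G93A and 123 and 167 CPM in untreated WT mice. Atp6v1a had means of 269.5 CPM at 90 days and 280.5 CPM at 155 days in untreated G93A mice, and 259.8 and 387 CPM in untreated WT mice. Atp6v1b2 had 299 and 329 CPM in untreated G93A and 296 and 451.5 CPM in untreated WT mice. For Tcirg1 the means were 19.5 and 40.2 CPM in untreated G93A and 20.1 and 14.5 CPM in untreated WT mice. The fitted log2 fold change with age in untreated G93A mice was 0.25 ± 0.09 for Atp6v0a1 and 0.18 ± 0.11 for Atp6v1h. It was 0.08 ± 0.12 for Atp6v1a, 0.16 ± 0.14 for Atp6v1b2 and 1.06 ± 0.15 for Tcirg1. The WT mice of 155 days stand in both the age contrast and the genotype contrast, so these are not separate results. In a fit of all 32 mice, the G93A change differed between the ages for 7 of 23 V-ATPase genes tested in untreated mice, 4 of them listed, where 21.2% of all genes did. Atp6v0d2 was among the 23, but with its few counts in WT mice the standard error of this term was 3.66.

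**Figure D4:**
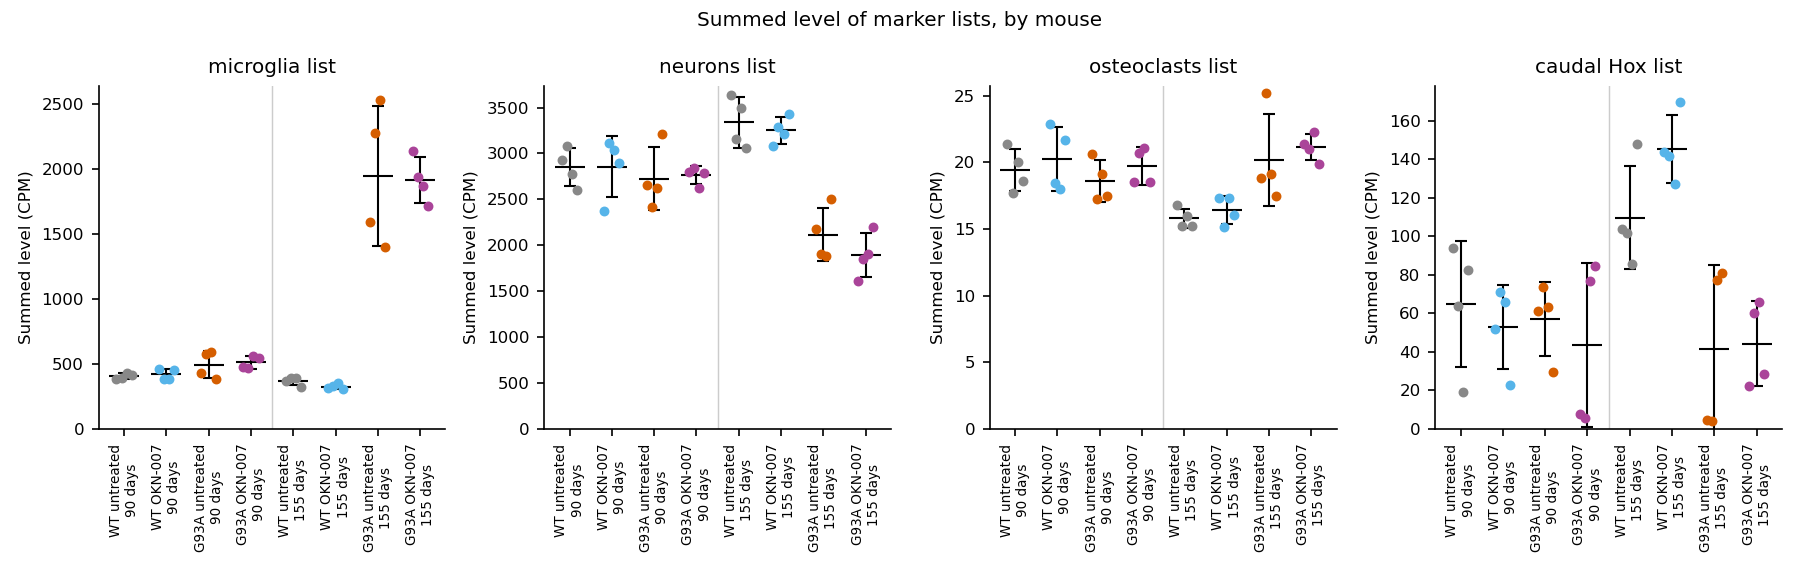
Summed level in CPM of 9 microglial, 6 neuronal, 8 osteoclast and 6 caudal Hox genes in each of the 32 mice, by group, with the mean and SD of 4 mice as black bars. At 155 days the microglial sum is higher and the neuronal and caudal Hox sums are lower in G93A than in WT mice, with untreated ranges of 1398 to 2524 against 324 to 393 CPM for microglia.

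Genes of several cell types moved with the same contrast. All 9 microglial markers were higher in untreated G93A mice at 155 days, with a summed level of 1398 to 2524 CPM against 324 to 393 CPM in untreated WT mice, and no marker at 0. All 9 markers of disease-associated microglia were higher too, with a median log2 fold change of 4.70. All 5 astrocyte markers were higher, with a summed level of 12386 to 16256 CPM against 4007 to 4512 CPM. Of 5 motor neuron markers 4 were lower, at 131 to 150.3 CPM against 206 to 252 CPM. All 6 neuronal markers were lower, at 1884 to 2499.6 CPM against 3060.2 to 3634 CPM. In untreated WT mice 3 of these 6 neuronal markers were higher at 155 than at 90 days, and all 5 oligodendrocyte markers were lower. Of all genes, 21.3% were higher and 18.2% lower in the untreated genotype contrast, and 15.3% and 9.61% in this age contrast. In treated WT mice, 7 of 9 microglial markers were lower at 155 than at 90 days, against 1 of 9 in untreated WT mice. There 3 of 6 neuronal markers were higher and all 5 oligodendrocyte markers lower as well, where 17.8% of all genes were higher and 13.5% lower. In treated mice at 155 days, all markers of both microglial lists and 4 of 5 astrocyte markers were higher in G93A mice. All 6 neuronal and all 5 motor neuron markers were lower there, where 23.3% of all genes were higher and 18.2% lower. Border and infiltrating macrophage markers summed to 6.18 to 10.3 CPM in untreated G93A and 3.53 to 4.16 CPM in untreated WT mice at 155 days. Of the 5 that could be tested, 1 was higher. Markers of epithelia that use d2 summed to 0.187 to 0.293 CPM and 0.294 to 0.777 CPM. Their part in the V-ATPase differences was not tested. The 6 caudal Hox genes summed to 4.24 to 80.9 CPM in untreated G93A mice and to 85.6 to 148 CPM in untreated WT mice at 155 days. With a caudal Hox score as a covariate, the log2 fold change of Tcirg1 in untreated mice was 1.39, those of Atp6v1a and Atp6v1b2 were -0.33 and -0.31, and 5 in place of 8 of the other V-ATPase genes passed.

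Osteoclasts, in which Atp6v0d2 is best known, were checked by 8 marker genes. Their summed level was 17.5 to 25.2 CPM in untreated G93A and 15.2 to 16.8 CPM in untreated WT mice at 155 days. The genes did not rise together. Acp5, which encodes an osteoclast and macrophage phosphatase, was at 0.577 ± 0.13 CPM and rose by 2.13 ± 0.47 on the log2 scale (adjusted p = 0.00135, edgeR). Nfatc1, a transcription factor of osteoclasts and other cells, rose by 1.24 ± 0.15 (adjusted p = 1.88e-06). Ctsk, the main collagen-degrading protease of osteoclasts, fell by 0.48 ± 0.13 (adjusted p = 0.00697) to 5.51 ± 0.94 CPM. Oscar did not pass (-0.07 ± 0.19), and Dcstamp, Ocstamp, Calcr and Siglec15 were too low to be tested, with at most 12 counts in any mouse of 155 days. No gene of the list was at 0 in all mice of a group.

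The genes whose pattern over the 8 group means was most like that of Atp6v0d2 were Igf1, Spp1, Cebpa, Tnfsf8 and Cd200r4, by Pearson's r of log2 CPM, with r of 0.998 for Igf1 and 0.996 for Cd200r4. Igf1, a growth factor made by reactive microglia, was at 37.2 and 43.2 CPM in untreated and treated G93A mice at 155 days and at 4.40 to 5.45 CPM in the other groups. Among V-ATPase genes, r was 0.96 for Atp6v0a2, 0.91 for Tcirg1 and 0.90 for Atp6v0e, and -0.97 for Atp6v1g2. Such values were common over all genes. Among 19829 genes ordered from the highest r, Atp6v0a2 ranked 941, Tcirg1 1760, Atp6v0e 1971 and Atp6v1g2 19709. Group means share their depth and their animals, and this is a description with no test.

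Within the 8 G93A mice of 155 days, the level of Atp6v0d2 was compared with 3 other measures. With the microglia score, the mean log2(CPM + 0.1) of the 9 microglial markers, Pearson's r was 0.74 (exact permutation p = 0.0125, adjusted over 3 relations 0.0267). Spearman's rho was 0.71 (exact permutation p = 0.0576, adjusted 0.0864). Without the 2 mice farthest from the median score, r was 0.50 (n = 6, exact permutation p = 0.317). The relation did not pass with these fewer mice. With Tcirg1, r was 0.71 (exact permutation p = 0.0178, adjusted 0.0267) and rho 0.76 (exact permutation p = 0.0368, adjusted 0.0864). Without the 2 farthest mice r was 0.59 (n = 6, exact permutation p = 0.21), and this relation did not pass with fewer mice either. With Atp6v0d1, r was 0.28 (exact permutation p = 0.454, adjusted 0.454) and rho 0.071 (exact permutation p = 0.882, adjusted 0.882). Without the 2 farthest mice it was 0.29 (exact permutation p = 0.653). Replicate 12 of the untreated mice was lowest in Atp6v0d2, in the microglia score and in Tcirg1. Without it, r was 0.61 with the score and 0.69 with Tcirg1, and neither passed after adjustment.

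**Figure D5:**
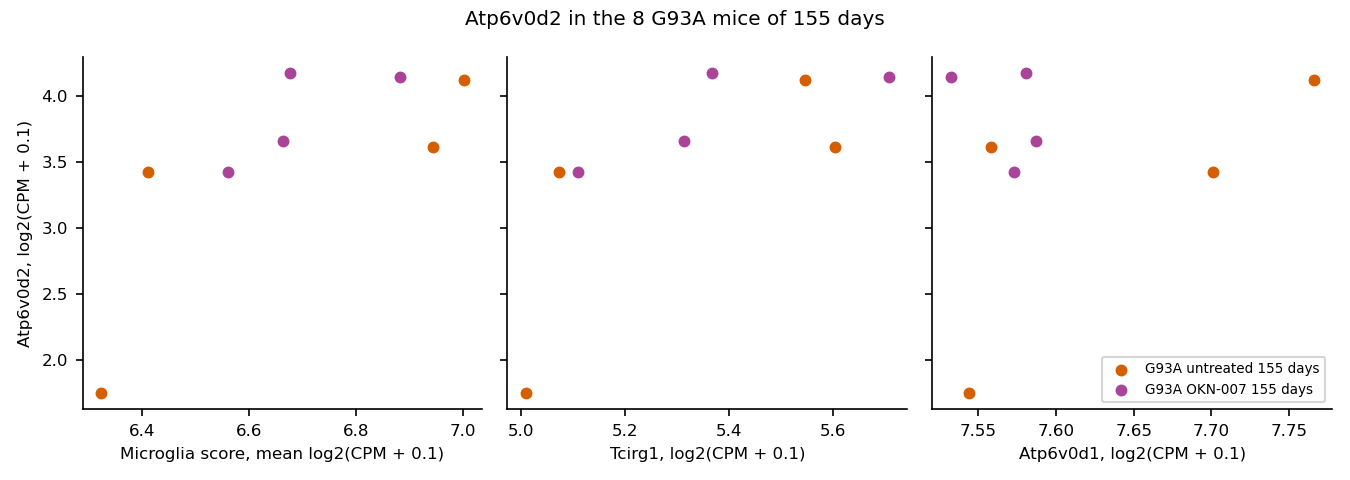
Atp6v0d2 level, log2(CPM + 0.1), against the microglia score, Tcirg1 and Atp6v0d1 on the same scale, in 4 untreated (orange) and 4 OKN-007 treated (purple) G93A mice at 155 days. The untreated mouse at the lower left, replicate 12, is lowest in Atp6v0d2 at 1.75, and Pearson's r over the 8 mice is 0.74, 0.71 and 0.28.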

How the data were processed

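RNA of 25 mg spinal cord per mouse was made into TruSeq Stranded mRNA libraries, and the authors deposited raw counts of reads per gene, 1 column per mouse, with no normalization. The study's methods name STAR, HTSeq, GRCm38 and GENCODE M10, while the submitters' processing notes list STAR, featureCounts, edgeR, FastQC, GRCm39, mm39 and hg38 with no role. The table holds 1306 gene IDs numbered above the last one of GENCODE M21, so which counter and annotation made it is not settled. Symbols and positions came from GENCODE M21, which matched 41218 of 42524 IDs (96.9%). Aligner settings, including the handling of reads that fit several genes, are not given in the sources used here.

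Counts were analysed with edgeR 4.0.16 in R 4.3.3 (filterByExpr, TMM, glmQLFit, glmQLFTest), with the 16 mice of an age in 1 fit or all 32 for age, no covariate, and Benjamini-Hochberg adjustment over all genes tested, adjusted p under 0.05. Standard errors derive from the F statistic, and intervals are at 95%. P-values of group differences set the difference against the spread between mice of a group. They do not cover a difference in sequencing run or cord position that goes with the groups. Levels are TMM-scaled CPM, and folds against a group at or under 3 counts are bounds set at 3 counts. Ratios and correlations used exact permutation tests (scipy 1.17.1). The fit was tested on simulated counts with known changes.

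The members, marker lists and other gene lists were chosen with earlier results of these data known. The genes named are the 9 listed genes, other V-ATPase, assembly and MiT/TFE genes past the threshold (up to 6 in each direction), osteoclast markers, and the 5 genes most like Atp6v0d2 over group means. Vma21, Tmem199, Rnasek and Atp6ap1l, and genes under the filter, were named after their values were seen. Replicate numbers of the labels recur in every group of a genotype and treatment at both ages, but do not pair the mice. Alternatives were DESeq2 1.42.0, the likelihood ratio test, RLE factors, no filter, a minimum of 10 counts per mouse, fits of the compared groups alone or of all 32 mice, a caudal Hox covariate, leaving out the 3 mice highest in Alb (a liver gene), other thresholds and pseudocounts, and leaving out each mouse. Age in OKN-007 treated WT mice was added after seeing the data.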

Additional observations from a re-analysis of the deposited data

Results flagged for a closer look

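In 4 of 66 groups of 4 mice examined, the highest or lowest mouse stood apart from the other 3, where chance gives about 1 in 20 groups, or 3.3 of 66. Atp6v0c was at 235.5 CPM in replicate 2 of the untreated WT mice at 155 days, where the next mouse was at 197 CPM. Without that mouse the log2 fold change of Atp6v0d1 between untreated G93A and WT mice, which is near 0, changed sign to 0.02. In OKN-007 treated G93A mice at 90 days, Atp6v0a1 was at 206 CPM in replicate 13, Atp6v1a at 242 CPM in replicate 15 and Atp6v1h at 106 CPM in replicate 15, where the next mice were at 198, 273 and 125 CPM.

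The G93A change of 7 V-ATPase genes differed between 155 and 90 days in untreated mice, in the interaction term of a fit of all 32 mice (21.2% of all genes did). This term holds the 155-day contrast by which the listed genes were chosen, so it is no separate evidence for them. The change at 155 days minus that at 90 days was 0.76 on the log2 scale for Atp6v0e, -0.36 for Atp6v0a1, 1.52 for Tcirg1 and -0.50 for Atp6v1a. Among genes that were not listed, it was 0.43 ± 0.10 for Atp6v0a2 (adjusted p = 0.0026, edgeR), -0.33 ± 0.10 for Atp6v0e2 (adjusted p = 0.0153) and -0.54 ± 0.13 for Atp6v1g2 (adjusted p = 0.002).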

How the results depend on the processing

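The count of other V-ATPase genes past the threshold in untreated mice at 155 days, 8, was 5 with a caudal Hox covariate, 2 with a log2 fold change of at least 0.5, and 7 to 11 when each mouse was left out. In treated mice it was 3 with the fold limit in place of 8, and 8 without any 1 mouse. For age in untreated WT mice, 9 V-ATPase genes passed, 3 with the fold limit, and 5 to 11 without each mouse, the lowest without replicate 4 of the 90-day mice. DESeq2 gave 9, 9 and 10 in these comparisons. The added comparison of treated WT mice, chosen after seeing the data, gave 12. In the comparisons at 90 days, of OKN-007 and of genotype by treatment, the count was 0 under every alternative run. The correlation of Atp6v0d2 with the microglia score was 0.61 to 0.80, and that with Tcirg1 0.68 to 0.76, when each mouse was left out, and both lost the threshold without replicate 11 or 12 of the untreated or 13 of the treated mice. Atp6v0d1, with a log2 fold change of -0.04 in untreated mice at 155 days, ranged from -0.075 to 0.024 without each mouse, and was 0.0084 without G93A replicate 10. The fitted change of Atp6v0d2 depends on the prior count and is not given, and it was positive under all 16 alternatives in both treatments.

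With the replicate number as a block, 9 V-ATPase genes passed for age in WT mice, as without it. The numbers do not pair the mice: deviations of 16 same-numbered pairs correlated at -0.22 to 0.13, with 2 over 0.1, and 3 of 16 mice correlated best with their own number. Depth limits Atp6v0d2 at 90 days, with at most 6 counts in a G93A and 1 count in a WT mouse.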
